A study of Mus musculus with 2 samples.

Results

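Muller glia span the retina and carry out much of its housekeeping: they take up glutamate and convert it to glutamine, pass potassium and water to the vitreous and blood vessels, and buffer acid and carbon dioxide. The 10 genes described here stand for those tasks. Glul encodes glutamine synthetase, Slc1a3 the glutamate transporter GLAST, and Slc38a3 a transporter that exports glutamine. Kcnj10 encodes the inward rectifier potassium channel Kir4.1 and Aqp4 the water channel aquaporin 4. Car2 and Car14 encode carbonic anhydrases, Gja1 the gap junction protein connexin 43, Dkk3 a secreted protein of the Dickkopf family, and Abca8a a membrane transporter of the ABCA family. They were chosen by symbol from the 32285 genes of the deposited matrices, for their functions but with earlier results of these data known. All 10 were found.

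The data came from retinas of mice on the C57BLKS background, not treated, at 13 weeks of age. The control genotype had the wild-type leptin receptor gene (Leprwt/wt, also given as m/m). The diabetic genotype had 2 copies of its db allele (Leprdb/db), a mouse model of obesity and type 2 diabetes in which leptin signalling is impaired in the whole animal. Each genotype had 1 library, from the retinas of both eyes of 2 mice, digested with enzymes and processed with 10x Genomics 3' v3.1 chemistry, which counts unique molecular identifiers (UMIs) near the 3' end of each transcript. Cells were not assigned to mice, so a genotype is 1 sample, no test between genotypes was possible, and every interval given is a 95% interval that covers counting error only.

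The wild-type library held 10308 barcodes and 35642274 UMIs, and the db/db library 11083 barcodes and 33742189 UMIs. The libraries shared 26 barcodes, 0 of them among the Muller glia-like cells of both. Lepr itself had 6 UMIs in 5 cells of each library, which checks neither label, since a 3' tag does not read the db mutation. After filters 10230 wild-type and 10963 db/db cells remained. Clusters were built without the 10 genes and named from other markers. Muller glia-like cells, named from 12 markers such as Rlbp1, Sox9 and Vim, numbered 182 in the wild-type library (1.78% of cells) and 91 in the db/db library (0.83%). All 12 markers were detected in both libraries, with a summed level of 20530 and 21910 CPM, that is UMIs scaled to 1000000 UMIs of the class. The median depth of these cells was 5804.5 and 6345 UMIs. RNA of rods was present in them: the rod markers stood at 23.7% and 26.5% of their level in rod-like cells. Cone markers summed to 608 CPM in Muller glia-like cells of the wild-type library and 202 in those of the db/db library, and bipolar markers to 860 and 413. Of 6 astrocyte markers, 5 were detected in each library, summing to 80.3 and 112 CPM, with Gfap at 36 and 11 UMIs and Pax2 at 1 and 3 UMIs.

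For 6 of the 10 genes a promoter was matched in the RefSeq table of GRCm38.p6. Of these, 3 are shown as the 250 bases before the transcript start, 5′ to 3′, because they contrast a pair of glutamate genes, Glul and Slc1a3, whose level was over 10-fold higher in Muller glia-like than in rod-like cells, with Gja1, which was not detected in Muller glia-like cells. Capitals mark matches to TTGGC, the half-site of nuclear factor I, or to ACAAT, the core bound by SOX proteins, on either strand.
Glul, chr1:153899679-153899928, plus strand: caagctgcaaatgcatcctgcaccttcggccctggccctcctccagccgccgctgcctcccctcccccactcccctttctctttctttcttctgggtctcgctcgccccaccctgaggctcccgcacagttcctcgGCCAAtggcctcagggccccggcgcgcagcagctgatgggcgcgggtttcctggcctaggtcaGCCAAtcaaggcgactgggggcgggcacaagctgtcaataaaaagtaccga
Slc1a3, chr15:8710808-8711057, minus strand: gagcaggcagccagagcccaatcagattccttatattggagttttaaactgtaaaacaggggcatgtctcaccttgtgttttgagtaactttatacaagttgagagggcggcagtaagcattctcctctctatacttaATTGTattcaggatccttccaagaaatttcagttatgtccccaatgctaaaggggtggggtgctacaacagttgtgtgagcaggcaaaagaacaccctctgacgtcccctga
Gja1, chr10:56377050-56377299, plus strand: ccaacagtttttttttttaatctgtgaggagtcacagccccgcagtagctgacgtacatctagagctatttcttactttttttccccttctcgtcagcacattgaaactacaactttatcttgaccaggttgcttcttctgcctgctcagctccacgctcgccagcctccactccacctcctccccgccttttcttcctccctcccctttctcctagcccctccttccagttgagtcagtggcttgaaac
TTGGC was found in 4 of the 6 promoters (Glul, Kcnj10, Car14 and Abca8a) and in 41.5% of the 32851 promoters of the same length in the table. ACAAT was found in 2 of the 6 (Slc1a3 and Abca8a) and in 27.7% of all promoters. Both motifs are short and common, and a match is only a description of these letters.

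Of the 10 genes, 9 had at least 50 UMIs in Muller glia-like cells over both libraries and are called measured. Their level is given as CPM of a class in a library, not corrected for transcript length, so that each gene is compared with itself across classes and libraries. In both libraries 7 of the 9 measured genes stood at 10-fold the rod-like level or more in Muller glia-like cells, while Car2 and Slc38a3 did not and Gja1 was at 0. The share at 10-fold or more was 7.73% of 11514 genes (wild type) and 5.78% of 11329 genes (db/db). These are a wider set, the genes with at least 50 UMIs over Muller glia-like and rod-like cells of that library.

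**Figure D1:**
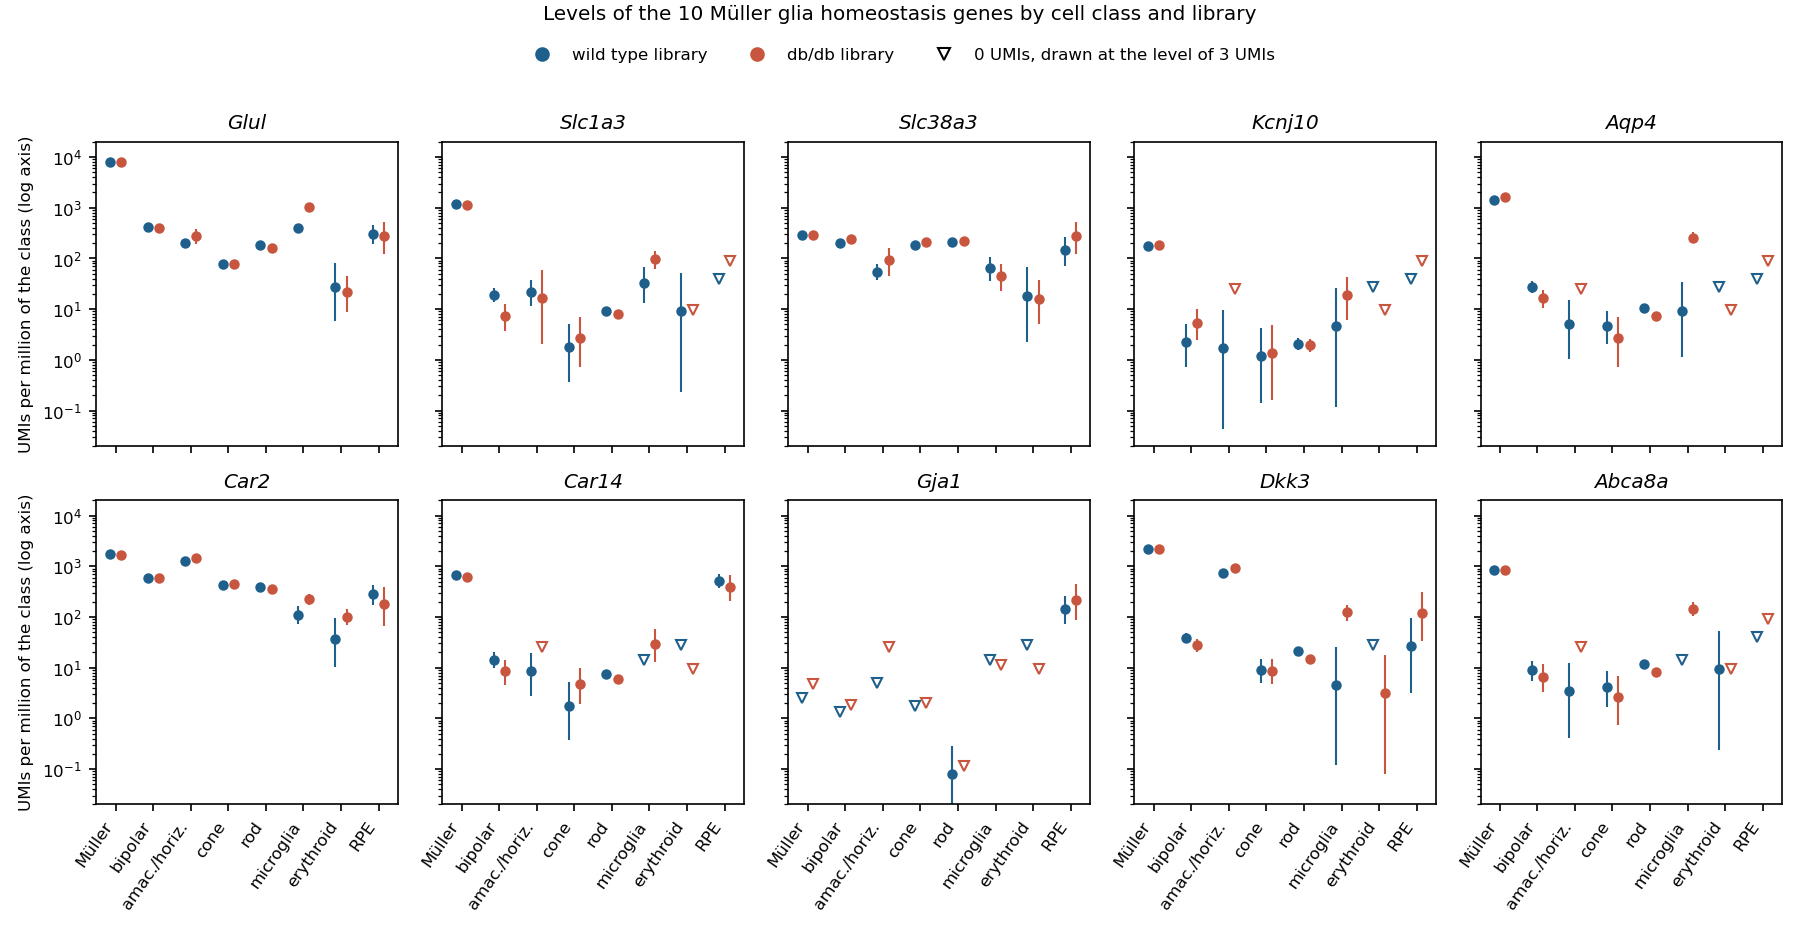
Level of each of the 10 genes (CPM within the class, log axis) in 8 cell classes of the wild-type (blue) and db/db (red) library, with 95% Poisson intervals; open triangles mark 0 UMIs, drawn at the level of 3 UMIs. Muller glia-like cells are highest for every gene but Gja1, Car2 and Slc38a3 vary by less than 10-fold across the neural classes, and the db/db microglia-like points stand apart for Glul, Aqp4, Dkk3 and Abca8a.

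Glul (ENSMUSG00000026473, chromosome 1, 153899944 to 153909723, plus strand, GRCm38) makes the enzyme that joins glutamate and ammonia into glutamine. Muller glia-like cells held 9490 wild-type and 5056 db/db Glul UMIs, or 7852 (7694 to 8011) and 8102 (7880 to 8328) CPM. Microglia or macrophage-like cells had 395 and 1033 CPM, with 192 of their 277 db/db UMIs in 1 cell, described below. Bipolar-like cells had 420 and 406 CPM, and retinal pigment epithelium-like cells 304 and 273, from 23 and 9 UMIs. The level was 200 and 275 in amacrine or horizontal-like cells, 186 and 162 in rod-like cells and 77.1 and 77.4 in cone-like cells. Glul was thus 42.2-fold higher in Muller glia-like than in rod-like cells of the wild-type library and 50.1-fold in the db/db library. Within the bipolar-like class the level was not even: a cluster led by Trpm1, Cntn5 and Ptprz1 had 717 and 669 CPM, and a cluster led by Pcp2, Trpm1 and Gng13 had 304 and 134. A cluster led by Grik1, Gsg1 and Slitrk6 had 315 and 527, and a cluster led by Reln, Igfn1 and Pcp2 had 514.5 and 223. Over the bipolar-like class, Glul lay within the range of the glial markers described below. Teddm2 overlaps Glul on the other strand, and had 12 and 8 UMIs in Muller glia-like cells.

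Slc1a3 (ENSMUSG00000005360, chromosome 15, 8634124 to 8710764, minus strand) makes GLAST, the transporter that clears glutamate from the extracellular space of the retina. It had 1462 wild-type and 723 db/db UMIs in Muller glia-like cells, or 1210 and 1159 CPM. Rod-like cells had 9.18 and 7.89 CPM, a fold of 132 and 147 between the classes. Microglia or macrophage-like cells had 32.5 and 97.0 CPM from 7 and 26 UMIs, 22 of the latter in the same db/db cell. Amacrine or horizontal-like cells had 22.1 and 16.7 CPM from 13 and 2 UMIs, and bipolar-like cells 19.0 and 7.22 from 43 and 12 UMIs.

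Slc38a3 (ENSMUSG00000010064, chromosome 9, 107650634 to 107669530, minus strand) makes the glutamine transporter SNAT3. Its level was nearly flat across the neural classes with most cells. Muller glia-like cells had 286 and 285 CPM (346 and 178 UMIs), rod-like cells 208 and 220 (5283 and 5856 UMIs), bipolar-like cells 201 and 240.5, and cone-like cells 188 and 211. The Muller glia-like level was 1.38-fold that of rod-like cells (wild type) and 1.30-fold (db/db). The lower levels were those of amacrine or horizontal-like cells (54.3 and 91.8), microglia or macrophage-like cells (65.1 and 44.8) and erythroid-like cells (18.6 and 15.8).

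Kcnj10 (ENSMUSG00000044708, chromosome 1, 172341210 to 172374085, plus strand) makes Kir4.1, the main potassium conductance of Muller glia. Muller glia-like cells had 209 and 115 UMIs, or 173 (150.3 to 198) and 184 (152 to 221) CPM. Rod-like cells had 2.05 and 1.95 CPM, from 52 UMIs in each library, so that the fold between the classes was 84.4 and 94.4. Bipolar-like, cone-like and amacrine or horizontal-like cells had at most 9 UMIs in either library.

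Aqp4 (ENSMUSG00000024411, chromosome 18, 15389496 to 15410982, minus strand) makes the water channel of Muller glia and astrocyte endfeet. Its level in Muller glia-like cells was 1402 (1336 to 1471) CPM from 1695 wild-type UMIs and 1622 (1523 to 1725) from 1012 db/db UMIs. Rod-like cells had 10.8 and 7.47 CPM, a fold of 130 and 217. AC133525.2 overlaps Aqp4 on the other strand and had 3 and 4 UMIs in Muller glia-like cells.

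The carbonic anhydrases, which interconvert carbon dioxide and bicarbonate, had different class patterns. Car14 (ENSMUSG00000038526, chromosome 3, 95897768 to 95904691, minus strand), a membrane enzyme, had 673 and 617 CPM in Muller glia-like cells (813 and 385 UMIs) and 7.49 and 6.01 in rod-like cells, a fold of 89.8 and 103. The one other class with a level near that of Muller glia was retinal pigment epithelium-like, with 515 and 394 CPM from 39 and 13 UMIs in 45 and 14 cells. Aph1a overlaps Car14 on the other strand and had 53 and 27 UMIs in Muller glia-like cells. As the use of strand in counting is not given in the sources used here, reads of Glul, Aqp4 and Car14 cannot be told apart from those of their antisense partners.

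Car2 (ENSMUSG00000027562, chromosome 3, 14886273 to 14900770, plus strand), the cytosolic enzyme, was found in every neural class. Muller glia-like cells had 1712 and 1633 CPM (2069 and 1019 UMIs), and amacrine or horizontal-like cells 1283 and 1477 (756 and 177 UMIs), bipolar-like cells 579 and 586, cone-like cells 433 and 438 and rod-like cells 382 and 359. In the amacrine or horizontal-like class the level was carried by a cluster led by Calb1, Gria3 and Lamp5, with 2295 and 2092 CPM, above the Muller glia-like level of both libraries. The cluster led by Gad1, Cartpt and Gad2 had 439 CPM in the wild-type library. The bipolar-like clusters ranged just as widely in the wild-type library, from 292 in a cluster led by Pcp2, Gng13 and Trnp1 to 1925 in one led by Slit2, Gsg1 and Ntng1. The Muller glia-like level was 4.48-fold and 4.55-fold that of rod-like cells.

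Gja1 (ENSMUSG00000050953, chromosome 10, 56377330 to 56402513, plus strand) makes connexin 43, the gap junction protein of astrocytes. It was not detected in Muller glia-like cells: 0 of 182 wild-type and 0 of 91 db/db cells had a UMI, and a count of 0 allows a level of up to 2.48 and 4.81 CPM (3 UMIs of the class). Over all kept cells there were 13 wild-type and 8 db/db Gja1 UMIs. Of these, 11 and 7 lay in retinal pigment epithelium-like cells, at 145 and 212 CPM, 2 lay in wild-type rod-like cells and 1 in a db/db cell mixed with rod.

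Dkk3 (ENSMUSG00000030772, chromosome 7, 112116017 to 112159057, minus strand) makes a secreted glycoprotein of the Dickkopf family, whose other members act on Wnt receptors. Muller glia-like cells had 2671 and 1374 UMIs, or 2210 and 2202 CPM, 104-fold and 151-fold the rod-like level of 21.2 and 14.6. Amacrine or horizontal-like cells had 750 and 909 CPM (442 and 109 UMIs). Here the order of the clusters was opposite to that of Car2: the Gad1, Cartpt and Gad2 cluster had 1254 CPM in the wild-type library, and the Calb1, Gria3 and Lamp5 cluster 146 and 266.

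Abca8a (ENSMUSG00000041828, chromosome 11, 110025634 to 110095978, minus strand) makes a transporter linked to lipid handling. It had 1033 and 531 UMIs in Muller glia-like cells, 855 and 851 CPM, against 11.6 and 8.07 in rod-like cells, a fold of 73.8 and 105. Its near copy Abca8b had 252 and 141 UMIs in the same cells, and was 139-fold over the rod-like level in the wild-type library. Reads shared by the copies could be split between them in counting, so their separate values are uncertain.

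Droplet libraries carry free RNA, so a low level in another class was read against the 12 Muller glia markers that are not members. In rod-like cells these markers stood at 0.34% to 3.48% of their Muller glia-like level in the wild-type library and at 0.124% to 2.36% in the db/db library. The same 7 members, Glul, Slc1a3, Kcnj10, Aqp4, Car14, Dkk3 and Abca8a, lay at or below the highest marker in both libraries. Car2 and Slc38a3, at 22.3% and 72.7% in the wild-type library, lay above it, and the same 2 genes lay above the highest marker in bipolar-like, cone-like and erythroid-like cells of both libraries. In amacrine or horizontal-like cells Car2 and Dkk3 lay above it in both libraries, and Slc38a3 did so in the db/db library.

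**Figure D2:**
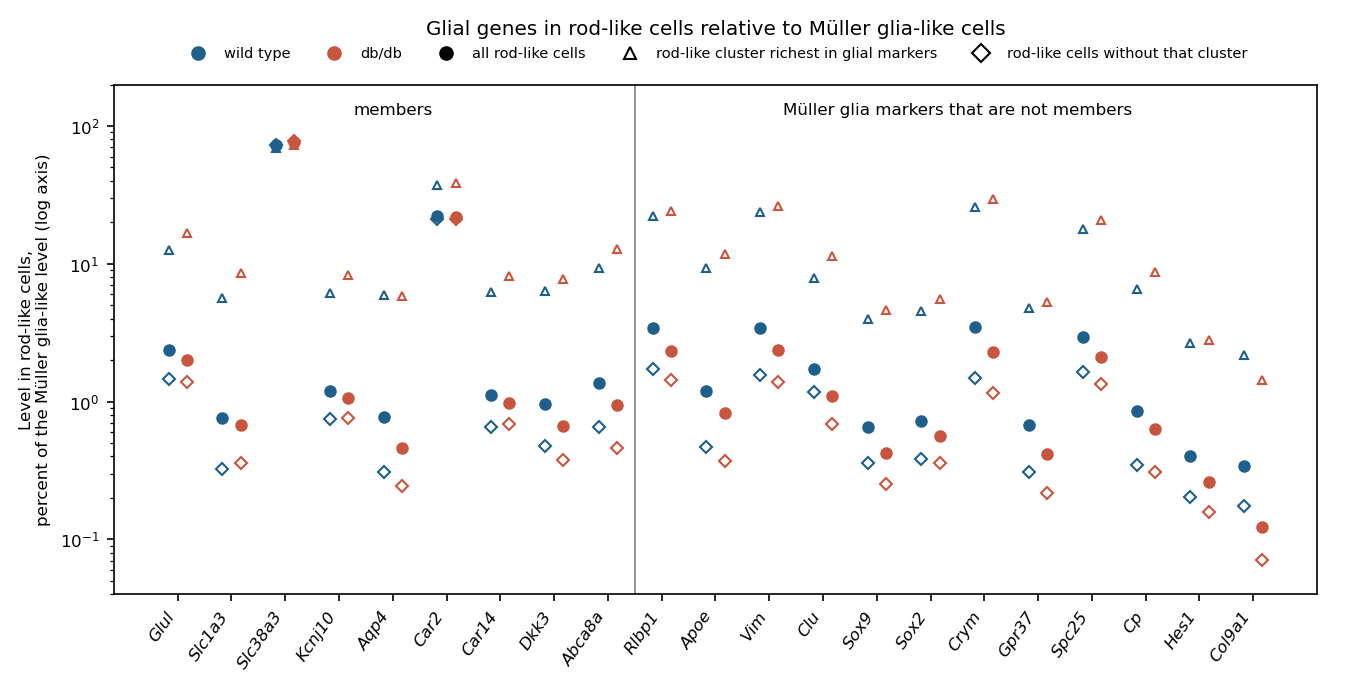
Level in rod-like cells as a percent of the Muller glia-like level of the same library (log axis), for the 9 measured members and 12 Muller glia markers that are not members; filled circles are all rod-like cells, triangles the rod-like cluster richest in glial markers, diamonds the rod-like cells without it. The 7 glial members lie among the markers, Slc38a3 and Car2 lie above them, and the triangles stand above the diamonds for every gene but Slc38a3.

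The share of each gene's UMIs that Muller glia-like cells held followed the same division. These cells were 3.40% of the UMIs of wild-type kept cells and 1.86% of the db/db ones. They held 81.6% and 76.8% of Aqp4, 81.5% and 73.5% of Slc1a3, 75.5% and 61.8% of Kcnj10, 74.2% and 65.5% of Abca8a, 73.1% and 64.8% of Car14, 70.1% and 69.4% of Dkk3, and 59.2% and 47.3% of Glul. Of Car2 they held 12.8% and 7.60%, and of Slc38a3 4.71% and 2.43%. Rod-like cells, the most numerous class, held 60.0% of wild-type Car2 and 71.9% of wild-type Slc38a3 UMIs. Retinal pigment epithelium-like cells held 84.6% of the wild-type Gja1 UMIs.

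**Figure D3:**
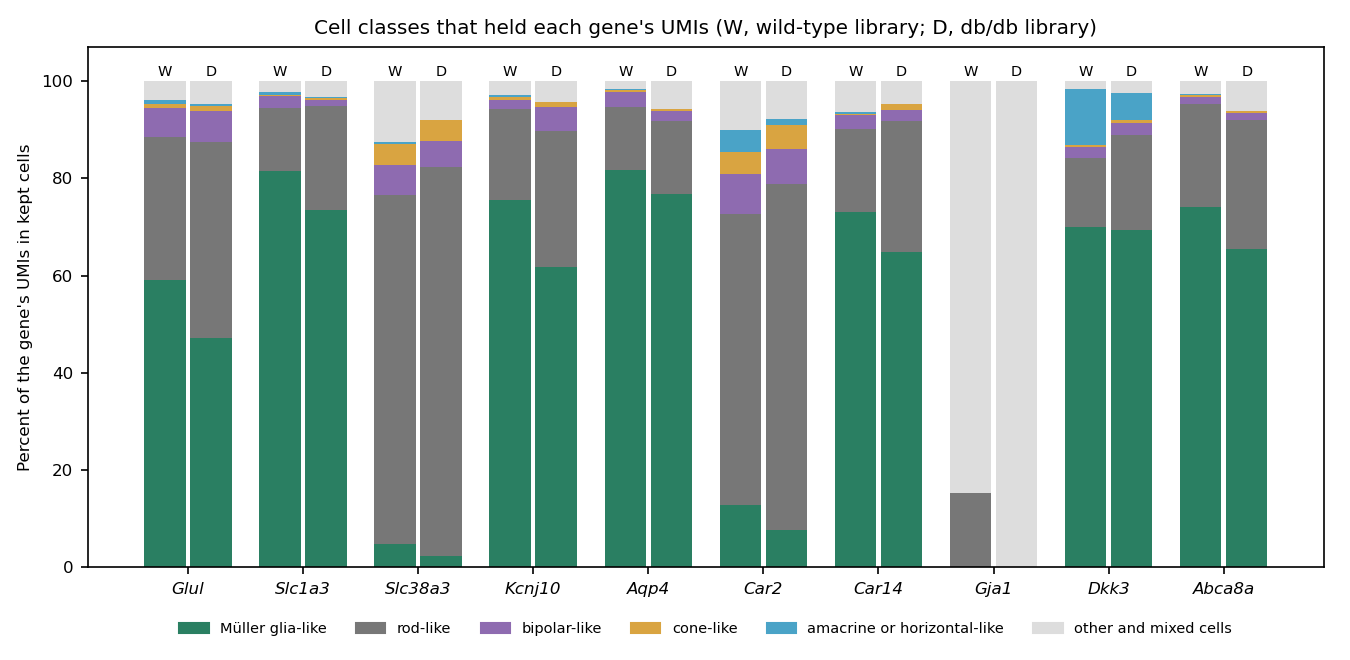
Percent of each gene's UMIs in kept cells that lay in each cell class, with 1 bar for the wild-type library (W) and 1 for the db/db library (D). Muller glia-like cells (green) hold most UMIs of 7 genes in the wild-type library, rod-like cells (grey) hold most of Slc38a3 and Car2, and other cells hold most of Gja1.

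Seen cell by cell, most Muller glia-like cells had UMIs of most members. Whether the members were seen together more often than their levels and the depth give was not tested. The median wild-type cell had a UMI for 8 of the 10 genes and the median db/db cell for 9, which is the highest count found. All 9 measured genes were seen in 88 wild-type cells (48.4%) and 52 db/db cells (57.1%). With each cell thinned to 1000 UMIs, which kept 176 and 90 cells, the median was 6 in both libraries. Together the genes made up 1.64% and 1.67% of the UMIs of these cells.

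Glul was seen in 99.5% of wild-type and 100% of db/db Muller glia-like cells, with a median of 79.8 UMIs per 10000 (quartiles 49.6 and 103.6) and 78.6 (54.5 and 117.1). On thinned cells its variance was 2.52 and 2.77 times its mean, against at most 1.62 for any other member. A ratio of 1 is what counting error alone would give, and a gene with more UMIs shows spread between cells more readily. These ratios therefore do not rank the members by their spread relative to their level. Kcnj10 was the least often seen of the measured members, in 57.7% and 73.6% of cells as deposited and in 18.2% and 26.7% of thinned cells. In rod-like cells, with a median depth of 2189 and 1930.5 UMIs, Glul was seen in 27.9% and 25.1%, Car2 in 52.6% and 50.2% and Slc38a3 in 37.0% and 37.4%.

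**Figure D4:**
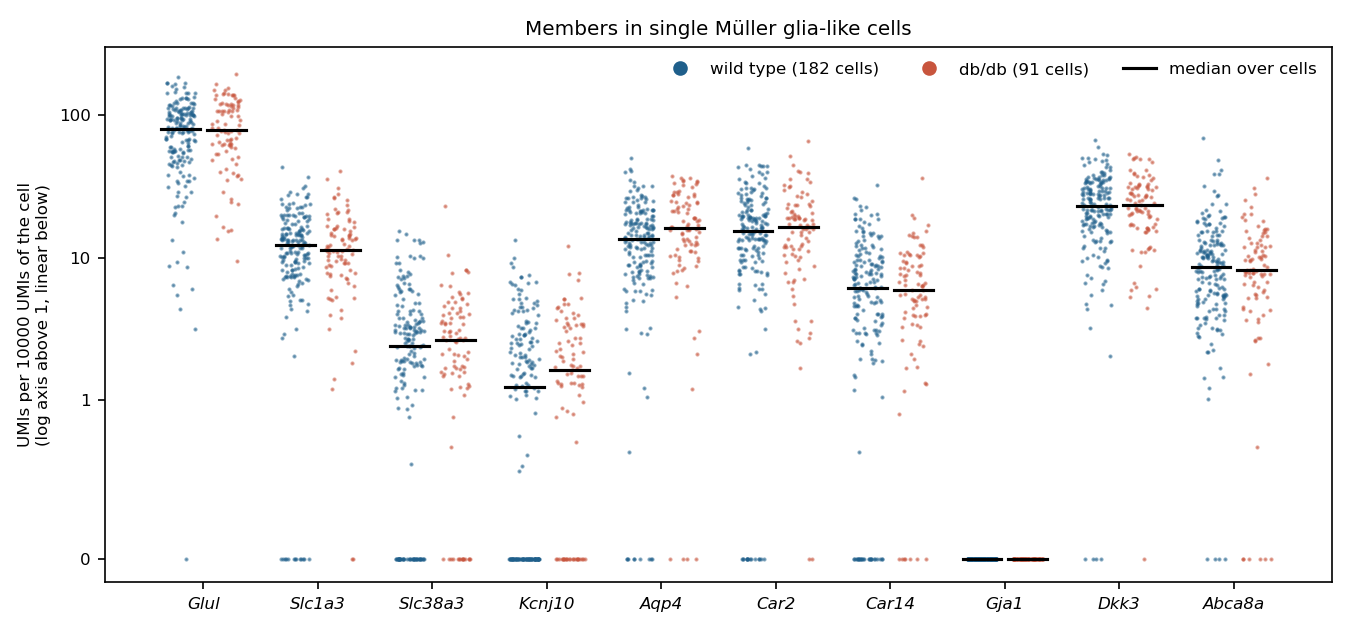
UMIs of each gene per 10000 UMIs of the cell (log axis above 1, linear below) in 182 wild-type (blue) and 91 db/db (red) Muller glia-like cells, with black lines at the medians. The clouds of both libraries overlap for every gene, and Gja1 is at 0 in every cell.

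Between genotypes, the members differed little in Muller glia-like cells. Of the 9 measured members, 0 were 1.5-fold or more higher and 0 were 1.5-fold or more lower in the db/db library, beside 5.34% higher and 5.6% lower among the 6380 genes measured in these cells. Their median log2 ratio, db/db to wild type, was -0.01, and that of all measured genes 0.02. Aqp4 was the one member whose interval did not span 0, at a log2 ratio of 0.21 (0.10 to 0.32), or 1.16-fold. Glul had 0.05 (-0.0043 to 0.09), Kcnj10 0.09 (-0.25 to 0.43), Slc1a3 -0.06 (-0.19 to 0.07), Car2 -0.07 (-0.18 to 0.04) and Car14 -0.12 (-0.30 to 0.05). Dkk3 (-0.10 to 0.09), Abca8a (-0.16 to 0.15) and Slc38a3 (-0.27 to 0.26) each had a ratio of -0.01. These intervals lie within 1.5-fold for all 9 members, but they leave out the spread between mice and between dissociations, for which the design has no measure. The 12 other Muller glia markers had a median of 0.05, with 1 past 1.5-fold, the collagen gene Col9a1 at 0.59. Of these markers 4 had an interval above 0 and 1 an interval below 0, so an interval off 0 was not particular to Aqp4.

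**Figure D5:**
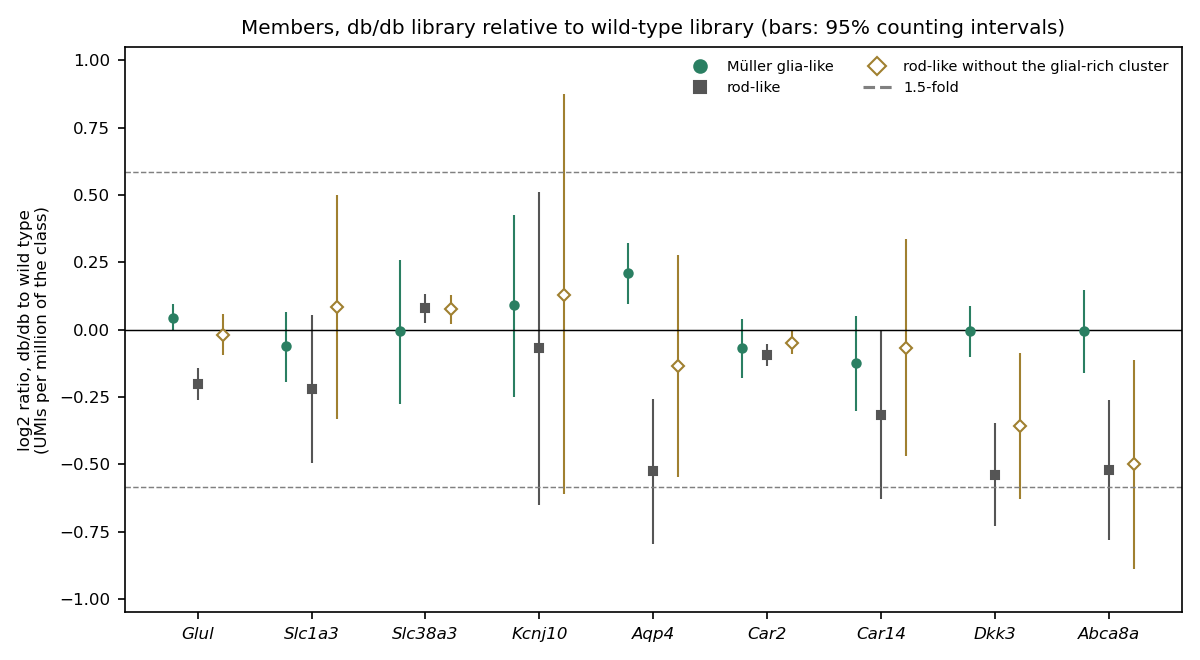
Log2 ratio of the level in the db/db library to that in the wild-type library for the 9 measured members in Muller glia-like cells (circles), rod-like cells (squares) and rod-like cells without the cluster richest in glial markers (diamonds); bars are 95% counting intervals and dashed lines mark 1.5-fold. Muller glia-like ratios lie between -0.12 and 0.21, and the rod-like ratios of Glul, Slc1a3, Aqp4 and Car14 lie nearer to 0 without that cluster.

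Over all kept cells the same genes looked different. Glul went from 451.5 CPM (wild type) to 318.9 (db/db), a log2 ratio of -0.50. Dkk3 (-0.86), Car14 (-0.82), Slc1a3 (-0.78), Abca8a (-0.70), Aqp4 (-0.57) and Kcnj10 (-0.49) were also lower. Car2 had -0.19 and Slc38a3 0.08. The 7 glial members were thus lower in the db/db library as a whole, beside a smaller share of Muller glia-like cells in it, while their level within those cells differed by less than 1.5-fold. With 1 library per genotype, a difference in that share cannot be told apart from a difference between preparations.

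In rod-like cells 0 of the 9 measured members were past 1.5-fold, beside 2.11% of 12012 genes higher and 1.9% lower, but 8 of 9 had a ratio below 0, with a median of -0.22 against 0.03 for all genes. Dkk3 had -0.54 (-0.73 to -0.35), Aqp4 -0.53 (-0.80 to -0.26), Abca8a -0.52 (-0.78 to -0.26), Car14 -0.32 (-0.63 to -0.01) and Glul -0.20 (-0.26 to -0.14). The 12 Muller glia markers were below 0 in 12 of 12 cases, with a median of -0.51. A single rod-like cluster, led by Cxcl12, Gm19667 and Pdia5, bore on these values. It held 492 wild-type cells (5.94% of rod-like cells, exact interval 5.44% to 6.47%) and 341 db/db cells (3.58%, 3.21% to 3.97%). Its summed Muller glia marker level was 2244 and 2886 CPM, against 163 and 137 in the other rod-like cells, and its rod markers stood at 93.9% and 90.8% of the level there.

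That cluster held 8.17% of wild-type and 3.91% of db/db rod-like UMIs, but 46.4% and 35.5% of the rod-like UMIs of the 7 glial members. In it these 7 genes stood at 5.62% to 12.6% of the Muller glia-like level in the wild-type library and 5.81% to 16.7% in the db/db library. In the other rod-like cells they stood at 0.309% to 1.46% and 0.243% to 1.40%. Without the cluster, an alternative chosen after seeing the data, the rod-like ratio was -0.02 for Glul (-0.09 to 0.06), 0.08 for Slc1a3, -0.07 for Car14 and -0.14 for Aqp4 (-0.55 to 0.28). Dkk3 kept -0.36 (-0.63 to -0.09) and Abca8a -0.50 (-0.89 to -0.11), and the 11 Muller glia markers still measured were all below 0, with a median of -0.25. Slc38a3, whose rod-like level is not at the level of the glial markers, had 0.08 with and without the cluster.

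In microglia or macrophage-like cells, 64 wild-type and 61 db/db, the 3 measured members were all past 1.5-fold higher in the db/db library, beside 7.66% higher and 10.4% lower among the 1515 genes measured there. On the log2 scale Glul, with 85 and 277 UMIs, stood 1.39 higher (1.03 to 1.76), and Aqp4, with 2 and 69 UMIs, 4.79 higher. Car2, with 24 and 60 UMIs, was 2.01-fold higher. These values rested on 1 db/db cell. It had 18717 UMIs, against a class median of 4331, and held 192 of the Glul UMIs, 41 of the Car2 UMIs and all 69 of Aqp4, 33 of Dkk3 and 39 of Abca8a. The limit for a measured gene is on UMIs summed over both libraries, and Aqp4 and Car2 passed it only with this cell. The 3 of 3 was thus partly set by that limit and cannot be weighed against the 7.66%. The cell had 212 of the 298 Muller glia marker UMIs of the class, Apoe not counted, together with 149 UMIs of microglia markers. With the cell highest in those markers left out of each library, chosen after seeing the data, Glul had 77 and 85 UMIs, for a ratio of -0.17 (-0.63 to 0.29), Car2 had -0.53 (-1.49 to 0.43), and Aqp4, Dkk3 and Abca8a were at 0 in the db/db class.

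In bipolar-like cells 2 of the 6 measured members were past 1.5-fold lower in the db/db library, beside 3.07% of 8776 genes lower and 2.59% higher. Slc1a3 had 43 and 12 UMIs and a ratio of -1.40 (-2.46 to -0.45), and Aqp4 62 and 27 UMIs and -0.76 (-1.46 to -0.08). The limit for a measured gene is on UMIs summed over both libraries, and Slc1a3 passed it mainly through the wild-type library, where it was higher. The 2 of 6 was thus partly set by that limit and cannot be weighed against the 3.07%. Slc1a3, Aqp4 and Glul stood in this class at percents of the Muller glia-like level that the glial markers also reached. Of the 12 Muller glia markers 8 were measured there, with 3 past 1.5-fold lower (Apoe -0.61, Vim -0.75 and Gpr37 -0.73), 1 past it higher (Sox9 1.08) and a median of -0.22. The class also mixed its clusters differently in the libraries: the Grik1, Gsg1 and Slitrk6 cluster had 87 wild-type and 108 db/db cells, the Reln, Igfn1 and Pcp2 cluster 64 and 32, and a cluster led by Slit2, Neto1 and Ntng1 30 and 6. Glul had a pooled ratio of -0.05, but its level went in opposite directions between clusters. It was higher in the db/db library in the Grik1 cluster (80 and 185 UMIs). It was lower in the Pcp2, Trpm1 and Gng13 cluster (196 and 55 UMIs) and the Reln cluster (118 and 29 UMIs). Aqp4 went the same way in these clusters, with 3 and 9, 14 and 2, and 17 and 1 UMIs. So did Slc1a3 (0 and 6, 10 and 0, and 4 and 0), while Dkk3 and Car14 were not higher in the Grik1 cluster. The part of Muller glia RNA in these Glul values was not tested. Car2 had 0.02 over the class, and Slc38a3 was higher at 0.26 (0.06 to 0.45), below 1.5-fold. In cone-like cells 0 of 3 measured members were past 1.5-fold, beside 2.54% of genes higher and 2.52% lower. In amacrine or horizontal-like cells, 110 and 28, 0 of 3 were, beside 8.34% and 13.6%. That class joins the Calb1 and Gad1 clusters above, of 59 and 51 cells in the wild-type library but 20 and 8 in the db/db library, so its values compare different mixtures.

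The other genes of each task, from lists that do not include the members, were also compared in Muller glia-like cells by the same 1.5-fold. Beside the counts of each list, 5.34% of the 6380 genes measured in these cells were higher and 5.6% lower. Each list is too small for its count to be weighed against these shares. Of 16 glutamate and glutamine genes 10 were measured, with a median log2 ratio of -0.01, 0 higher and 1 lower. The lower gene was Slc7a11, which exchanges cystine for glutamate, with 58 and 11 UMIs and -1.45 (-2.52 to -0.50). Slc1a2, the glutamate transporter GLT-1, had 0.11 and the glutamine transporter gene Slc38a2 0.12. Slc3a2, the partner chain of several amino acid transporters, had -0.05.

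Of 17 potassium channel and pump genes 10 were measured, with a median of 0.12, 2 higher and 1 lower. Atp1b2, a beta chain of the sodium pump, had 0.21 (0.02 to 0.39), and Fxyd1, a pump regulator, 0.11. The Atp1b2 level was similar in rod-like cells (562.5 and 566.9 CPM) and Muller glia-like cells (515.4 and 594.5 CPM). The part of rod RNA in it was not tested. The potassium chloride cotransporter gene Slc12a4, 1 of the higher genes, named after its value was seen, had 0.67 (-0.10 to 1.44). The lower gene was Kcnma1, the large conductance calcium-activated potassium channel, with 91 and 28 UMIs and -0.75 (-1.41 to -0.12).

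Of 14 genes of water channels and the dystrophin complex, which anchors Kir4.1 and aquaporin 4 at the endfeet, 11 were measured, with a median of 0.24, 2 higher and 1 lower. Aqp1 had 35 and 33 UMIs and 0.87 (lower bound 0.14), but was also present in rod-like cells, where its level was higher than in Muller glia-like cells. Sgcb, a sarcoglycan named after its value was seen, had 0.60. Agrn, which encodes the matrix protein agrin, had 50 and 14 UMIs and -0.88 (-1.85 to -0.01). Dystrophin itself, Dmd, had 0.22 and its partner Dtna 0.21, with both intervals spanning 0. Dmd, too, was higher in rod-like cells (1147 and 1077 CPM) than in Muller glia-like cells (302 and 351 CPM). The part of rod RNA in its value was not tested.

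Of 19 acid-base and lactate genes 6 were measured, with a median of 0.06, 0 higher and 1 lower. Car10, a carbonic anhydrase-like protein without enzyme activity, had 62 and 7 UMIs and -2.19 (-3.57 to -1.07). Bsg, the chaperone of lactate transporters, had 2177 and 1396 UMIs and 0.31 (0.21 to 0.41), and the lactate transporter gene Slc16a1 0.28 (0.01 to 0.54). The Slc16a1 level was similar in rod-like cells (261.8 and 274.3 CPM) and Muller glia-like cells (254.8 and 309.3 CPM). Its part from rod RNA was not tested. The bicarbonate transporter gene Slc4a7 had 0.14. Its level was higher in rod-like cells (563 and 603 CPM) than in Muller glia-like cells (160 and 176 CPM), and the part of rod RNA was not tested. Of 12 gap junction genes 1 was measured, Tjp1, which encodes a junction scaffold and had 0.15, so that no connexin reached the limit of 50 UMIs.

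Of 12 Wnt antagonists and Dkk receptors 3 were measured, Frzb (0.38), Kremen1 (-0.17) and Lrp6 (-0.31). Of 9 ABCA genes 5 were measured, with a median of 0.12, among them Abca8b (0.12), Abca6 (0.16), Abca5 (-0.01) and the photoreceptor gene Abca4 (-0.08). In both lists 0 genes were past 1.5-fold in either direction, and the intervals of those named spanned 0. The lower levels of Slc7a11, Kcnma1, Agrn and Car10 rest on at most 28 UMIs each in the db/db library, beside the lower cone and bipolar marker sums in these cells, and the part of those other cells in them was not tested. The limit of 50 UMIs is on both libraries summed. Slc7a11, Agrn and Car10 passed it through the wild-type library, where they were higher. That these genes counted as lower was thus partly set by the limit.

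The members were last compared by their profile over 7 classes in 2 libraries, 14 points that share library, depth and free RNA. As log2 of the level plus 1, Glul correlated best with the mean of the other members (Pearson's r = 0.956). Dkk3 (0.755), Car2 (0.655) and Slc38a3 (0.532) had lower values and Gja1 the lowest (-0.04). The classes leave out retinal pigment epithelium-like cells, and Gja1 had 2 UMIs in wild-type rod-like cells and 0 elsewhere, so its value is at the floor. The db/db microglia or macrophage-like point includes the single cell described above. Among 1648 other genes with at least 200 UMIs in Muller glia-like cells, the profiles most like the mean of the members were those of Rlbp1 (0.970), which encodes the retinal-binding protein CRALBP, the ferroxidase gene Cp (0.965), Pdpn (0.964), Sbspon (0.963) and Efemp1 (0.961). Rlbp1 and Cp are among the markers that named the class.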

How the data were processed

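Single-cell libraries of 2 genotypes, 1 each, were analysed. Per the file headers, the deposited values were raw UMI counts per gene and barcode, written by cellranger 6.0.1. The submitters' processing notes name Cell Ranger and mm10. How cells were called, which annotation was used and whether strand was used in counting are not given in the sources used here. Positions were taken by gene identifier from GENCODE M21 (GRCm38).

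Cells with at least 200 genes and at most 20% mitochondrial UMIs were kept, which removed 1 and 77 wild-type and 7 and 113 db/db barcodes. Scrublet in scanpy 1.11.5 marked 0 wild-type and 2 db/db cells (0.0182%), too few for a caller that worked, so doublets largely stayed in the data. Counts scaled to 10000 per cell, 2000 variable genes without the 10 members, 40 principal components, 15 neighbours and Leiden clustering at resolution 1.0 gave clusters, in a second round for cells outside rods. A cluster got a provisional class if at least 3 of its markers were 2-fold over all kept cells. The name was kept if at least 3 were 2-fold over the clusters of other classes and the leading genes held no more markers of another class. Clusters of low depth without a leading marker were not named. Rod clusters instead had rod markers at 0.6 times the level of all kept cells or more, with no other class averaging a 2-fold rise. Cone clusters with a rod marker level of at least 0.6 times that of the library (458 and 374 cells) were kept out of the classes as mixed with rod, a limit set after seeing the data. Retinal pigment epithelium-like cells were under 20 in the db/db library and were not compared.

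UMIs were summed per class and library. Levels have Poisson, shares Clopper-Pearson and ratios conditional binomial intervals at 95%. PCR copies were collapsed by UMI, and the intervals cover counting error only. In a ratio against 0, the 0 was set to 3 UMIs. Calculations were tested on simulated data. The members and gene lists were chosen with earlier results of these data known. Named were all 10 members, up to 4 measured genes per list ranked by the interval bound nearest 0, the 5 genes of the most similar profile, and markers beside a result. A result that this rule covers is not reported here. Alternatives changed the cell filters, doublets, clustering, a per-cell marker gate, thinning, scaling, cell weights, free RNA and the fold, and left out 1 rod-like cluster and 1 microglia-like cell per library.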

Additional observations from a re-analysis of the deposited data

Results flagged for a closer look

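Ratios of a member that pointed in opposite directions in different classes, each with a counting interval on its own side of 0, are listed here as log2 ratios of db/db to wild type. The difference between classes was not tested, since each genotype has 1 library. Glul had 1.39 in microglia or macrophage-like and -0.20 in rod-like cells. Car2 had 1.005 in microglia or macrophage-like and -0.09 in rod-like cells. Aqp4 had 4.79 in microglia or macrophage-like and 0.21 in Muller glia-like cells, and -0.76 in bipolar-like and -0.53 in rod-like cells. The 3 microglia values rest on the single db/db cell described above.

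Gja1 was outside the comparisons, as it was not detected in Muller glia-like cells. Its 11 wild-type and 7 db/db UMIs in retinal pigment epithelium-like cells were above the 3 UMIs that a count of 0 allows, in a class too small in the db/db library to be compared.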

How the results depend on the processing

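No paired analysis was possible because each genotype has 1 library. Under 14 alternatives, with 135 to 374 wild-type and 83 to 249 db/db Muller glia-like cells, the median log2 ratio of the 9 members lay between -0.07 and 0.04. Under these 0 members were past 1.5-fold, so that a fold of 2 could only give 0. The alternatives were not all separate checks: clustering at resolution 2.0 and scaling within each library gave the cell numbers and ratios of the main setting. Dropping the mitochondrial limit, a single round of clustering and keeping the members among the clustered genes gave the same ratios as each other. Each of these had 183 wild-type and 91 db/db cells. Aqp4 stayed between 0.15 and 0.27 and Glul between 0.01 and 0.10. With cells thinned to 1000 UMIs Slc1a3 moved to -0.28, Kcnj10 to 0.50, Car14 to -0.37 and Dkk3 to -0.13, on fewer UMIs. With equal weight per cell Glul moved to 0.10 and Car2 to 0.06. The number of members at or below the highest marker in wild-type rod-like cells was 7, and 6 under the per-cell marker gate, whose 374 and 249 cells included 223 and 165 from rod-like clusters. Free RNA subtraction, median scaling and the fold of 2 gave no value for it. Without the microglia-like cell highest in Muller glia markers in each library, chosen after seeing the data, the Glul ratio there reversed, from 1.39 to -0.17. Depth limits Gja1, at 0 UMIs, and genes under 50 UMIs in a class.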
